A study of Mus musculus with 3 samples.

Results

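The 8 genes described here encode proteins that methylate DNA or silence transposons in mouse germ cells: Dnmt1, Dnmt3a, Dnmt3b, Dnmt3l, Uhrf1, Morc1, Trim28 and Setdb1. A deposited small RNA sequence was assigned to a gene when it matched, exactly and over its whole length, a GENCODE vM21 transcript of that gene on the chromosome given in the list, and matches to the 2 strands were kept apart. By that rule 1771 of the 2219118 listed sequences belonged to the 8 genes, 1760 in the sense direction and 11 antisense. Each was a distinct sequence without a read number, so the values below count how many different small RNAs matched an mRNA and not how abundant they were.

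The list pools 3 libraries of small RNAs from testes of C57BL/6 mice, 1 library per group and without replicates. They were recovered with the Tudor-domain protein Tdrd1 from adult testis, with the Piwi protein Mili from adult wild-type testis, and with Mili from Tdrd1 knockout testis for which the labels give 15 dpp (days after birth) as the age. The genotype of the animals used for Tdrd1 is not stated beyond the title, and neither the knockout allele nor the number of animals is given. The Mili libraries differ in age as well as in genotype, and the 2 cannot be told apart. All RNAs were eluted from a gel by size. The list names no library for a sequence, so no comparison between the groups and no test across conditions was possible, and the sequencing depth is unknown. In the pooled list the genes listed for male germ cells (Ddx4, Dazl, Sycp3, Tnp1 and Prm2) held 40.1 to 165 sense sequences per kb of exon. The genes listed for Sertoli cells (Sox9, Wt1 and Amh) held 0.323 to 2.99 and those listed for Leydig cells (Cyp17a1, Cyp11a1, Hsd3b6 and Insl3) 0 to 11.2. These RNAs were recovered with Tdrd1 or Mili and are not the whole RNA of the testis. Whether a low number at a gene comes from that recovery, from few cells of a type or from little RNA per cell cannot be told apart.

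Piwi proteins bind piRNAs, small RNAs of animal germ cells that usually begin with U. In the fetal male germ line piRNAs direct DNA methylation to transposons, which is set up by the de novo methyltransferases Dnmt3a and Dnmt3b with their cofactor Dnmt3l. Dnmt1 then copies methylation after replication, and Uhrf1 brings Dnmt1 to newly copied DNA. Trim28 is the corepressor that zinc finger proteins bind at transposons and through which the histone methyltransferase Setdb1 is recruited, and Morc1 is an ATPase needed for transposon silencing in male germ cells. Piwi proteins also carry piRNAs cut from ordinary mRNAs, and it is as possible sources of such piRNAs that the 8 mRNAs are described here. Whether each listed sequence is a piRNA was not tested.

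For each gene a 5′ end inside coding sequence that no other coding 5′ end exceeded in number of listed sequences is shown by its longest sequence of at most 30 nt, since these are the small RNAs themselves. Where several ends tied, the one nearest the start of the transcript is shown, which was so for 2 ends in Dnmt1, 2 in Dnmt3a, 3 in Setdb1 and 6 in Dnmt3l. Capitals mark the first base, which is T (U in the RNA) in most piRNAs, and base 10, which is often A in piRNAs made by the ping-pong cycle, in which a bound piRNA guides the cut that forms the next. All run 5′ to 3′ in the sense direction.
Dnmt1: TtggacgagGacgaggacggaaaaaagg
Uhrf1: CtaagaagaGcaagctggagccgtaca
Dnmt3a: TggaagtgcAgaacaagcagatgattgaat
Dnmt3b: TggatgttcGagaatgttgtggccatg
Dnmt3l: GacccttgaAaccttggacctggagact
Morc1: TggctaacgAgaaccagagagagtatca
Trim28: TctgattgtTattgagcgtggtgctgctgc
Setdb1: TgaggaactGgaaaagatggactgcata

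On mm9 these lie at chr9:20736558-20736585 on the minus strand (Dnmt1), chr17:56459847-56459873 on the plus strand (Uhrf1), chr12:3896959-3896988 on the plus strand (Dnmt3a) and chr2:153503330-153503356 on the plus strand (Dnmt3b). The others lie at chr10:77512863-77512890 (Dnmt3l, plus), chr16:48452566-48452593 (Morc1, plus), chr7:13614836-13614865 (Trim28, plus) and chr3:95159954-95159981 (Setdb1, minus). Each is exonic and coding. The 5′ ends shown were shared by 6 sequences in Dnmt1 and in Trim28, 5 in Dnmt3a, 4 in Morc1, 3 in Uhrf1 and in Setdb1 and 2 in Dnmt3b, whereas the Dnmt3l end had 1. The sequences that share an end differ at the 3′ side, as the 5 from Dnmt3a show.
Dnmt3a, 25 nt: TggaagtgcAgaacaagcagatgat
Dnmt3a, 26 nt: TggaagtgcAgaacaagcagatgatt
Dnmt3a, 27 nt: TggaagtgcAgaacaagcagatgattg
Dnmt3a, 28 nt: TggaagtgcAgaacaagcagatgattga
Dnmt3a, 30 nt: TggaagtgcAgaacaagcagatgattgaat

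All 8 mRNAs gave sense sequences, as did 71.0% of the 21951 protein-coding genes. Of the 8, 3 had 100 or more (Dnmt3a, Dnmt1 and Trim28), against 14.5% of all protein-coding genes. The median over the 8 genes was 11.9 sense sequences per kb of merged exon, and over all protein-coding genes, including those without a sequence, it was 2.89. Per kb of the longest coding transcript the medians were 20.7 and 3.49, and on either basis 7 of the 8 genes lay above the median of all. Among the 15575 genes with at least 1 sense sequence the median was 7.53 per kb. Dnmt3a alone held 60.7% of the sense sequences of the 8 genes. None of the 1760 sense sequences matched, in the sense direction, a transcript of any other annotated gene.

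The copying enzyme had a higher density than its partner. Dnmt1 had 263 sense sequences, 35.7 per kb, and 92.2% of protein-coding genes had a lower density. They lay between 20711658 and 20756914 of chromosome 9. Uhrf1, the protein that recruits Dnmt1, had 41 sequences, 9.63 per kb, with 69.2% of genes below it, between 56442947 and 56462909 of chromosome 17.

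The de novo enzymes ranged from the highest to the lowest value of the set. Dnmt3a had 1068 sense sequences, 64.2 per kb, and ranked 645th of the protein-coding genes, with sequences from 3835111 to 3914351 of chromosome 12. Dnmt3b had 50, 9.79 per kb, from 153475357 to 153513360 of chromosome 2. Dnmt3l, the cofactor without methyltransferase activity of its own, had 6, or 2.01 per kb, and was the only member below the median of all protein-coding genes (46.0% of genes had less). These 6 lay between 77512863 and 77525972 of chromosome 10.

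Among the chromatin silencers Trim28 came first with 173 sense sequences, 41.6 per kb, from 13609801 to 13616274 of chromosome 7. Setdb1, the histone methyltransferase that works with it, had 94, or 13.7 per kb, from 95127660 to 95159984 of chromosome 3. Morc1 had 65, or 10 per kb, from 48446441 to 48630923 of chromosome 16, although its coding transcript of 3045 nt makes up less than its 6479 bp of merged exon. Trim28 thus exceeded 93.8% of protein-coding genes, Setdb1 76.2% and Morc1 70.0%.

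**Figure D1:**
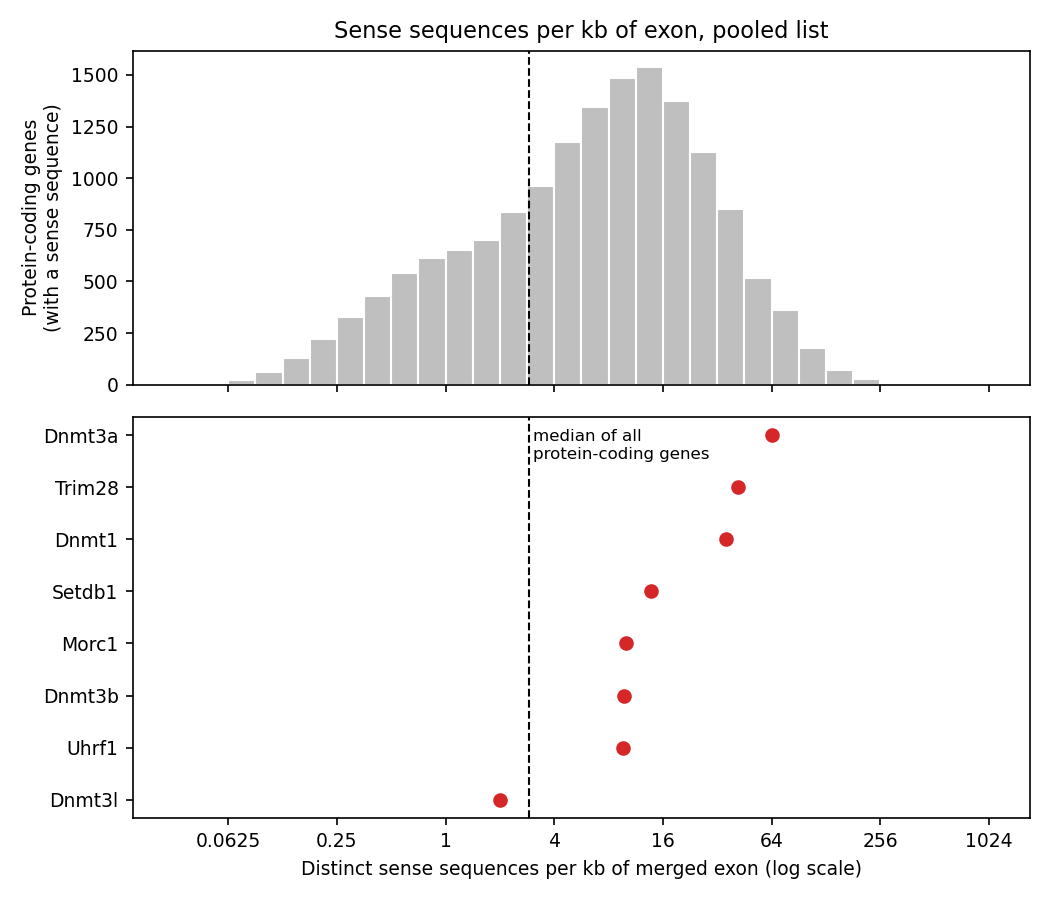
Number of distinct sense sequences for each kb of exon (log scale) for protein-coding genes with at least 1 sense sequence (histogram, upper panel) and for the 8 genes (points, lower panel). The dashed line is the median of all protein-coding genes, 2.89 per kb, genes without a sequence included; 7 of the 8 genes lie to its right, from Uhrf1 at 9.63 to Dnmt3a at 64.2, and Dnmt3l lies to its left at 2.01.

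Where the sequences lay within the mRNA differed between the genes. Sequences were placed by their midpoint on annotated coding transcripts. The share expected is the share of each part in the length of the transcripts matched, averaged over the placed sequences. It therefore depends on which annotated forms were matched, short ones included. It was not corrected for positions over exon junctions, where the list holds almost no sequences. Windows of 27 nt over a junction made up 5.92% in Dnmt3a and 16.9% in Dnmt1. In Dnmt3a 87.4% of the placed sequences lay in the 3′ untranslated region (exact Clopper-Pearson 95% interval 85.3 to 89.4%, here and below for counting error only), against 62.3% by length. The coding sequence of Dnmt3a held 11.2% against 33.9% by length. On the transcript Dnmt3a-201 alone the 3′ untranslated region made up 6696 of 9685 nt and held 933 of 1054 sequences, a smaller excess. Dnmt3b was alike in direction, with 54.0% in the 3′ untranslated region (39.3 to 68.2%) against 31.5%. Both intervals lie above the share by length.

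Trim28 and Dnmt1 were the reverse, with nearly all their sequences in coding sequence. Trim28 had 97.6% of 170 sequences there (94.1 to 99.4%) against 77.2% by length, 3 sequences in a 5′ untranslated region of 567 nt and 1 in a 3′ untranslated region of 173 nt. Dnmt1 had 89.8% of 263 in coding sequence (85.4 to 93.1%) against 83.5%. Its share in the 3′ untranslated region was 2.28% (0.842 to 4.9%), an interval that includes the 4.24% by length. In Morc1 all 65 sequences were coding (94.5 to 100%), where 93.7% was expected by length, and in Setdb1 86.0% (77.3 to 92.3%) against 85.0%. Uhrf1 had 62.5% of 40 in coding sequence (45.8 to 77.3%) against 68.2%. The intervals of Setdb1 and Uhrf1 include the share by length and that of Morc1 lies just above it, and all 6 sequences of Dnmt3l were coding.

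A higher share in the 3′ untranslated region than by length was found in 4 of the 7 members with at least 20 placed sequences, against 54.5% of the 9104 protein-coding genes with as many. A higher share in coding sequence was likewise found in 4 of the 7 (Dnmt1, Morc1, Trim28 and Setdb1), against 49.7% of those genes. Both counts lie near the value for all genes. Dnmt3a exceeded its length share by 25.1 percentage points, more than 90% of those genes, and Dnmt3b by 22.5 points, more than 86.8% of them. Trim28 exceeded the length share of its coding sequence by 20.5 points, more than 87.3% of them. Dnmt1 did so by only 6.36 points, more than 64.7% of them. Over the 8 genes together 56.6% of sequences were in 3′ untranslated regions (54.3 to 58.9%) against 41.4% by length, but without Dnmt3a it was 8.73% against 8.84%. The pooled value is therefore that of Dnmt3a.

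**Figure D2:**
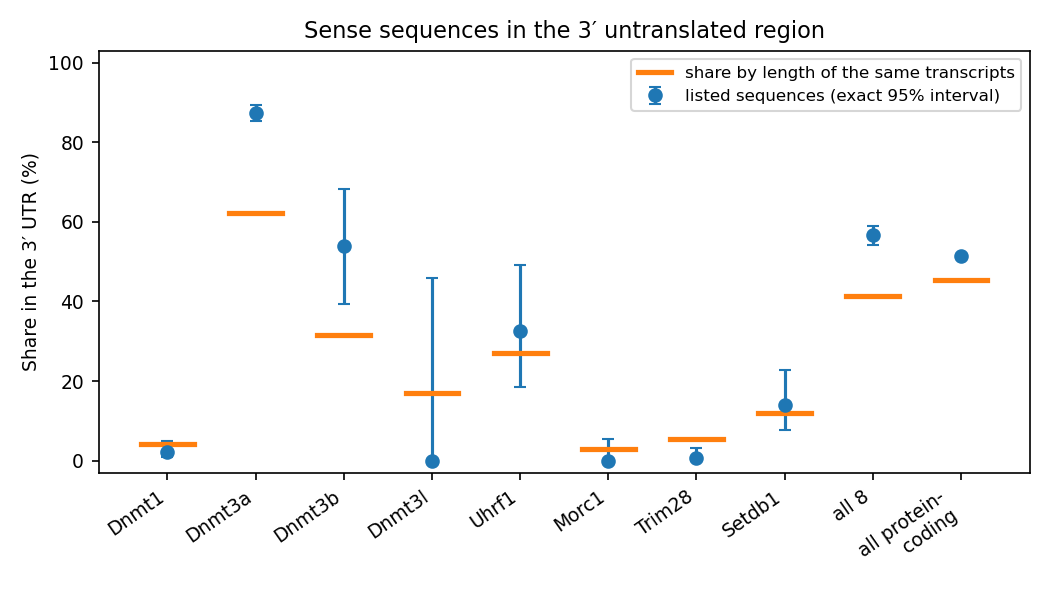
Share of placed sense sequences in the 3′ untranslated region for each gene, for the 8 together and for all protein-coding genes (points, with exact 95% intervals), beside the share of that region in the length of the same transcripts (orange bars). Dnmt3a (87.4% against 62.3%) and Dnmt3b (54.0% against 31.5%) lie above their bars, and Trim28 (0.588% against 5.33%) lies below.

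Densities within the best-matching coding transcript of each gene show the same. Along Dnmt3a-201 (9685 nt) the 3′ untranslated region of 6696 nt carried 139 sequences per kb, the coding sequence 44.0 and the 5′ untranslated region of 262 nt 3.82. Coding sequence was densest in Trim28 (66.3 per kb) and Dnmt1 (51.7). It carried 22.8 per kb in Morc1, 20.4 in Setdb1, 10.6 in Uhrf1, 8.53 in Dnmt3b and 4.74 in Dnmt3l. By its coding sequence, then, Dnmt3a ranked behind Trim28 and Dnmt1, and its first place over whole exons came with its long 3′ untranslated region. Dnmt3b had 20.3 per kb in a 3′ untranslated region of 1331 nt, and Uhrf1 13.2 in one of 984 nt.

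Within the mRNAs the sequences were unevenly spread. In Dnmt3a the most used stretch of 250 nt, from nucleotide 7251 to 7500 of the transcript, held 104 of 1054 sequences (9.87%), and 8 of the 39 stretches held at least 50% of them. In Dnmt1 the top stretch, 4001 to 4250, held 33 of 263 and in Trim28 the one from 2001 to 2250 held 39 of 170. Morc1 was fullest near its start, with 15 of 65 sequences from 501 to 750. Small RNAs covered 55.3% of the bases of Dnmt3a-201, 39.8% of Dnmt1-203, 37.4% of Trim28-201, 29.1% of Morc1-201, 23.7% of Setdb1-201, 18.2% of Dnmt3b-210, 14.9% of Uhrf1-201 and 8.89% of Dnmt3l-205.

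**Figure D3:**
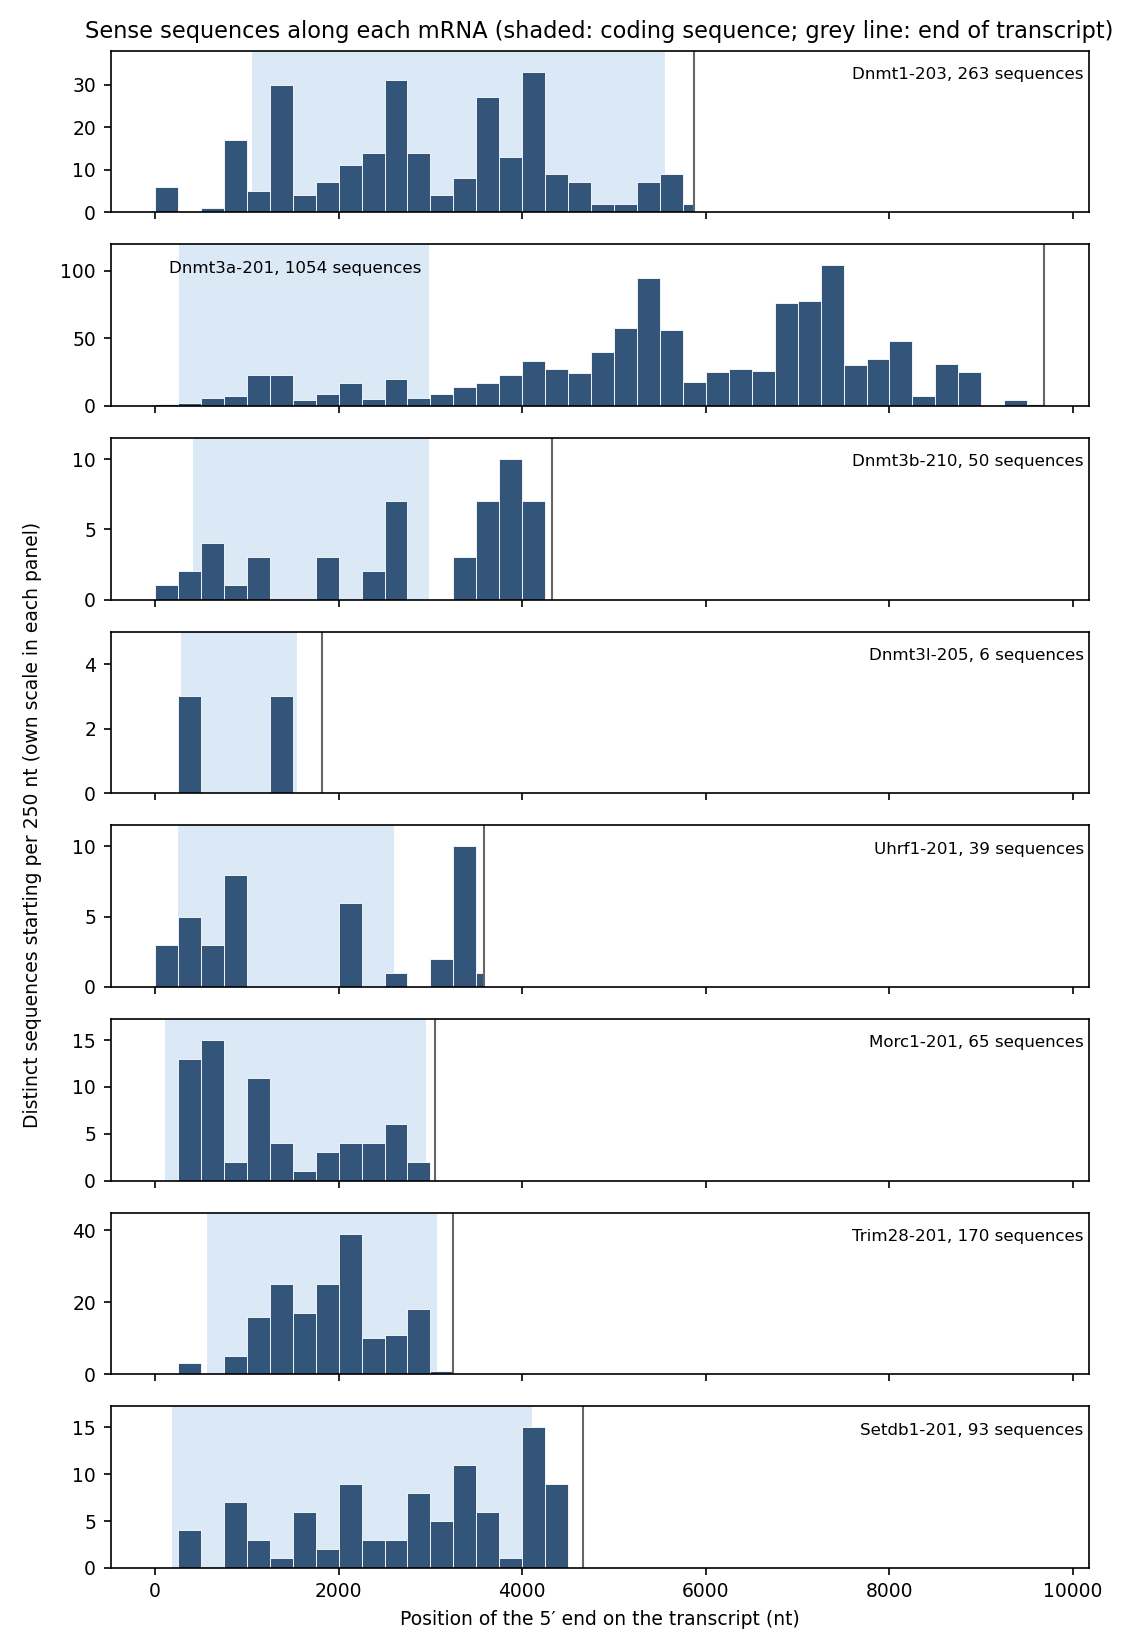
Number of distinct sense sequences starting in each 250 nt of the coding transcript that holds most of a gene's sequences, with the position on the transcript in nt on the x axis and a separate y scale in each panel. Shading marks the coding sequence and the grey line the transcript's end. Dnmt3a is filled mostly beyond its coding sequence, with the highest bar (104) at 7251 to 7500, while the bars of Dnmt1, Trim28 and Morc1 lie mostly inside the shading.

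Several of the genes have alternative forms in germ cells, and the parts in which annotated forms differ were counted apart. Dnmt3a is made as a long form and as a short form that lacks the first 657 nt of the coding sequence. That stretch carried 11 sequences (16.7 per kb), and the 2070 nt common to both forms carried 109 (52.7 per kb). Dnmt3a-203, an annotated short form, has 140 windows of 27 nt that Dnmt3a-201 lacks, and these were matched by 5 sequences (35.7 per 1000 windows), each of which also matches another annotated transcript of the gene. Dnmt3a-203 splices out 3489 nt of the 3′ untranslated region, and this stretch carried 466 sequences (134 per kb), next to 465 (147 per kb) in the 3166 nt after it. The sequences in the spliced-out stretch match Dnmt3a-201 and not Dnmt3a-203.

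Dnmt1 has alternative first exons in somatic cells, oocytes and spermatocytes. All 263 sense sequences matched Dnmt1-203, whose 5′ untranslated region of 1052 nt carried 24 (22.8 per kb). Of these sequences 11 were absent from Dnmt1-201, the form with the longer coding sequence of 4863 nt, over the 803 windows of Dnmt1-203 that Dnmt1-201 lacks (13.7 per 1000), and each of the 11 also matches another annotated Dnmt1 transcript. Conversely 0 sequences lay in the 300 windows of Dnmt1-201 that Dnmt1-203 lacks, which allows up to 10 per 1000 windows (3 sequences). The difference between these values was not tested. The 378 windows of Dnmt3b-201 that Dnmt3b-208 lacks also held 0. In Dnmt3l 3 of the 6 sequences matched the annotated forms with a coding sequence of 381 nt as well, and 0 matched the windows of Dnmt3l-203 that Dnmt3l-205 lacks.

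Sequences that join exons were absent from these genes except by a few bases. Of the sequences placed on the chosen transcripts, 10 in Dnmt1, 11 in Trim28 and 1 in Uhrf1 crossed an exon junction, and 0 in the other 5 genes. The shorter side measured at most 3 nt in each. Windows of 27 nt over a junction made up 5.92% (Dnmt3a) to 22.4% (Morc1) of the transcripts. Since each listed sequence has a single unbroken genomic interval, small RNAs from spliced junctions would not be in the list, and the numbers of genes with many exons, such as Dnmt1 with 39 and Morc1 with 27, leave them out. The shares by length and the densities per kb of each part were not corrected for this. How far it changes the share of coding sequence or of the 3′ untranslated region was not tested.

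Dnmt3b has a close neighbour on chromosome 2, Dnmt3c, a rodent duplicate that methylates young transposons in male germ cells. Dnmt3c had 0 sense sequences, which allows up to 3, and 1 antisense sequence. Of its 27-nt windows 34.3% are also found in Dnmt3b, as are 17.0% of those of Dnmt3b-210 in Dnmt3c. None of the 50 Dnmt3b sequences started in such a shared window. The sources used here do not say how sequences with several genome positions were treated, so both counts are uncertain where the genes are identical.

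U was the first base of most small RNAs of Dnmt3a and of a minority of those of Trim28. Among sense sequences of 24 to 32 nt the 8 genes together had U first in 64.6% of 1744 (62.3 to 66.9%), and all protein-coding genes in 67.7%. Dnmt3a held 1058 of the 1744, and without it the share was 53.4% (49.5 to 57.1%). Morc1 had 76.9% (64.8 to 86.5%), Dnmt3b 74.0% (59.7 to 85.4%) and Dnmt3a 71.9% (69.1 to 74.6%). Dnmt3l had 4 of 6 and Uhrf1 57.5% (40.9 to 73.0%). Dnmt1 had 49.2% (43.0 to 55.5%), Setdb1 48.9% (38.5 to 59.5%) and Trim28 45.6% (38.0 to 53.4%), and these 3 intervals lie below the value of all protein-coding genes. U made up 20.7 to 24.4% of each of the 8 mRNAs, so every gene with at least 20 sequences had more U at the first base than in its mRNA.

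Part of the spread among the genes went with the part of the mRNA. Over the 8 genes U came first in 73.7% of sequences in 3′ untranslated regions (70.9 to 76.5%) and in 52.5% of those in coding sequence (48.7 to 56.2%), where all protein-coding genes had 75.2% and 59.4%. Within coding sequence alone Dnmt3a had 60.8% (51.5 to 69.6%) and Morc1 76.9%, whereas Dnmt1 had 47.2% (40.6 to 53.8%), Setdb1 47.5% (36.2 to 59.0%) and Trim28 45.7% (37.9 to 53.7%). With fewer coding sequences, Uhrf1 had 44.0% of 25 (24.4 to 65.1%) and Dnmt3b 63.6% of 22 (40.7 to 82.8%). The U content of the coding sequences was 18.6% in Dnmt3a, 22.9% in Morc1, 19.0% in Dnmt1, 23.4% in Setdb1 and 21.7% in Trim28. It was 19.4% in Uhrf1 and 20.7% in Dnmt3b. Whether U content bears on the first base was not tested. Differences between genes were not tested, since neighbouring sequences of an mRNA are not independent.

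**Figure D4:**
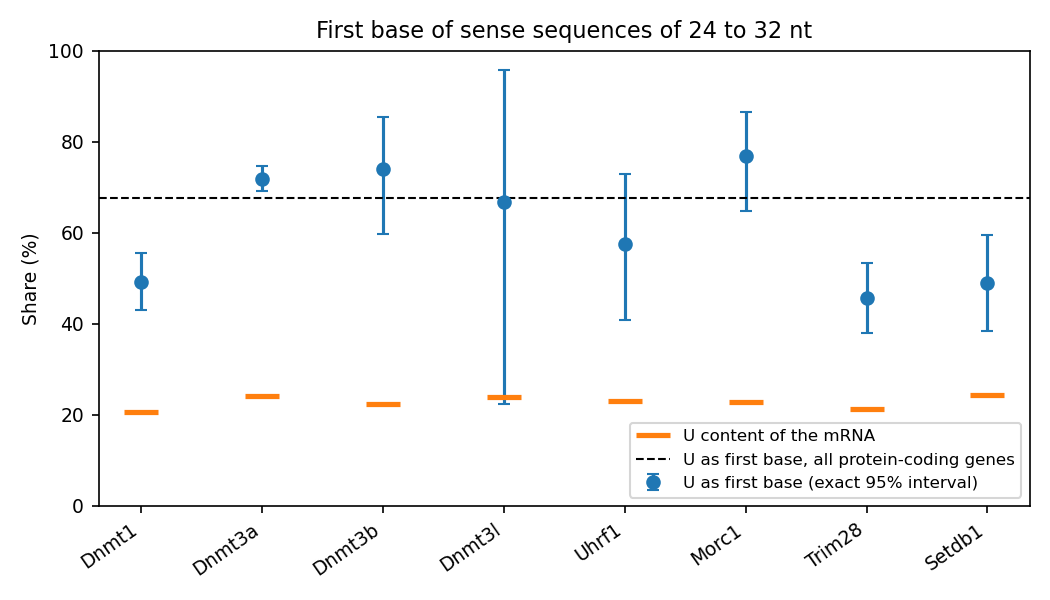
Share of sense sequences of 24 to 32 nt that start with U, per gene (points, exact 95% intervals), beside the U content of the gene's mRNA (orange bars) and the first-base share over all protein-coding genes (dashed line, 67.7%). Trim28 (45.6%), Setdb1 (48.9%) and Dnmt1 (49.2%) lie below the line and Morc1 (76.9%) has the highest value.

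First-base U was more frequent at 5′ ends shared by many sequences. The 1760 sequences had 1131 distinct 5′ ends, of which 780 were used by 1 sequence and 42 by 5 or more. U was the base at 46.9% of the ends used once (43.4 to 50.5%) and at 37 of the 42 most used (88.1%, 74.4 to 96.0%). Over all protein-coding genes the same shares were 56.1% and 91.4%. Dnmt3a supplied 35 of the 42, with U at 34. Trim28 had 5 with U at 2, and Dnmt1 2 with U at 1. The ends used most, by 7 sequences each, were at nucleotides 5286 and 7262 of Dnmt3a-201, both in the 3′ untranslated region. The first of them starts with C and the other with U.

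In mean length the small RNAs of the 8 genes lay close to those of other mRNAs. The mean was 27.2 nt and the most common length 27 nt, and over all protein-coding genes 27.4 and 27 nt. Sequences of 29 to 32 nt made up 20.3% (18.4 to 22.2%), below the 23.3% of all protein-coding genes. Dnmt1 had 16.3% of them (12.1 to 21.4%), Dnmt3a 20.5% (18.1 to 23.1%), Trim28 23.7% (17.6 to 30.7%), Morc1 26.2% (16 to 38.5%) and Uhrf1 29.3% (16.1 to 45.5%), with overlapping intervals.

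The marks of 2 known routes of piRNA production were looked for in the 8 mRNAs. A at base 10 was found in 28.0% of sequences (25.9 to 30.2%), next to 28.0% A at base 9 and 29.1% at base 11, and in 32.1% over all protein-coding genes. In the phased route, where the cut that ends 1 piRNA starts the next, the base after that cut is expected to be U. A listed 3′ end need not be such a cut, since sequences that share a 5′ end differ at the 3′ side. The base after the listed 3′ end was U for 24.4% of sequences (22.4 to 26.5%), and the following 9 bases were U in 22.1 to 26.1%. All protein-coding genes had 25.9% against 24.6 to 25.3%. Of 1354 distinct 3′ ends 82 were directly followed by a listed 5′ end, and at gaps of 1 to 20 nt the number was 90.9 ± 8.52 (SD over the 20 gaps). Neither mark stood out from its neighbouring positions in these genes. For the phased route this was seen at listed 3′ ends only, and phased production itself was not tested. In Dnmt3a the number at no gap was 60, next to 57 to 85 at gaps of 1 to 20 nt.

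Antisense sequences were few: 6 in Trim28, 3 in Dnmt3a, 2 in Dnmt1 and 0 in the other 5 genes. At least 1 was thus found in 3 of the 8 genes, against 30.0% of all protein-coding genes. The 8 genes had 160 sense sequences for each antisense one, a ratio to which Dnmt3a gave 1068 sense and 3 antisense sequences. Over all protein-coding genes the ratio of matches was 25.1, with a sequence that matches several genes counted for each. Of the 6 antisense to Trim28, 5 lie together in the coding sequence, from 13610304 to 13610342 of chromosome 7, and 3 of these share a 5′ end with U first and A at base 10. They are shown because they are the only antisense group among the 8 genes with 3 sequences at 1 end.
Trim28 antisense, 24 nt: TgcaggccgAatgtagacagggca
Trim28 antisense, 25 nt: TgcaggccgAatgtagacagggcag
Trim28 antisense, 26 nt: TgcaggccgAatgtagacagggcagc

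No sense sequence of Trim28 overlapped these 5, and the antisense sequence in the 5′ untranslated region, chr7:13609798-13609825, overlapped 2. None of the 11 antisense sequences had a sense partner with the 10-nt overlap of 5′ ends that ping-pong pairs have. Apart from the Trim28 sequence in the 5′ untranslated region, the 11 overlapped no sense sequence. For these no such pair was possible, so its absence says little. The 2 sequences antisense to Dnmt1 lay at chr9:20756658-20756686, opposite the 5′ untranslated region, and at chr9:20757231-20757258. The 3 antisense to Dnmt3a matched parts that Dnmt3a-201 does not contain.

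Other genes of DNA methylation and transposon silencing were also matched by listed sequences. Of 35 names listed, 34 were found as protein-coding genes (Lsh, an older name of Hells, was not). Of these, 33 had sense sequences, against 71.0% of all protein-coding genes, and 18 had 100 or more, against 14.5%. Their median was 21.2 per kb, and 29 of 34 lay above the median of all protein-coding genes. At least 1 antisense sequence was found in 18 of the 34, against 30.0% of all protein-coding genes. The highest was Tex15, a germ cell protein of piRNA-directed methylation, with 1294 sense sequences (134 per kb). Tet3, an oxidase of methylcytosine, followed with 1082 (64.8 per kb), close to Dnmt3a in number, density and first-base U (74.5%). Pphln1, a subunit of the HUSH silencing complex, had 284 (62.5 per kb), the histone methyltransferase gene Suv39h2 206 (46.7) and the histone chaperone gene Daxx 128 (40.6). The lowest were Tet2 with 29 (1.72 per kb), Morc4 with 7 (1.16) and Dnmt3c with 0. Within families the genes thus differed widely: Tet3 at 64.8 stood beside Tet1 at 2.13, as Dnmt3a at 64.2 did beside Dnmt3l at 2.01.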

How the data were processed

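The authors deposited a single table for the series, in which each distinct small RNA sequence stands with a chromosome and an interval. Positions refer to build 37 of the mouse genome per the file headers, which is mm9 as named by the submitters' processing notes. The table has no read number, strand or library. For the aligner, the mismatches allowed and the filters: not given in the sources used here. Sequences were searched in full length (index words of 18 nt, no mismatch) against all GENCODE vM21 transcripts (GRCm38), on both strands, with numba 0.67.0 and numpy 2.4.6 (the search was tested on simulated sequences). Coordinates printed are those of the deposited list, 1-based. Coding parts came from the annotation; a sequence matching several coding transcripts was split equally between them. Shares carry exact Clopper-Pearson 95% intervals (scipy 1.17.1). The intervals cover counting error only. The design foresaw no test, and none was run. All 8 genes are named; of the wider list the 5 highest and 3 lowest densities and any gene with 0 are named. Tet1 was added after its value was seen. Members, lists and alternatives were chosen with earlier results of these data known.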

Additional observations from a re-analysis of the deposited data

Results flagged for a closer look

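Listed sequences inside the range of a gene that match no annotated transcript were outside the values above, and they are given here where they numbered more than the 3 that a count of 0 allows. There were 102 in Dnmt3a (8.70% of the 1172 sequences listed in its range), 56 in Morc1 (46.3% of 121), 30 in Dnmt1 (10.2% of 294), 25 in Uhrf1 (37.9% of 66), 9 in Dnmt3b, 6 in Setdb1 and 5 in Trim28. In Morc1 24 of the 56 lay within 2000 bp, at chr16:48578074-48579862, and in Dnmt3a 32 of the 102 lay at chr12:3891930-3893849. In Uhrf1 15 of the 25 lay at chr17:56442989-56444140. U was the first base of 87.1% of those in Dnmt3a (79.0 to 93.0%) and of 83.9% in Morc1 (71.7 to 92.4%), but of 41.4% in Dnmt1 (23.5 to 61.1%). Their strand was not determined, and whether they come from introns of these genes, from other transcripts or from repeats was not tested.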

How the results depend on the processing

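Of 50 alternative values 41 stayed within 1.5 times the number or density, or within the 95% interval of the share, 9 moved by more and 0 changed direction, although counts and shares of a single list have no direction to change. Counting each 5′ end once gave 1131 in place of 1760 sense sequences, a first-base U share of 55.9% in place of 64.6% and a 3′ untranslated share of 49.3% (37.2% by length) in place of 56.6%. With the longest coding transcript in place of merged exons the median density was 20.7 per kb in place of 11.9 (3.49 in place of 2.89 over all protein-coding genes). Without Dnmt3a the first-base U share was 53.4%, the 3′ untranslated share 8.73% and the share of U after the 3′ end 20.1% (21.5% at the following 9 bases) in place of 24.4%. The cause of these changes was not tested. Keeping only lengths of 24 to 32 nt, any listed chromosome or sequences of no other gene moved none of the counts by 1.5 times. No paired analysis was possible because each group has 1 library and the list names none. No library could be left out for the same reason. Depth is unknown, and a gene with few sequences, such as Dnmt3l with 6, gives shares that span most of the range.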

Other observations

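Values of the wider gene list that were singled out after they had been seen concern the strand and the place of the sequences. Mphosph8, a chromodomain subunit of the HUSH complex, had 95 sense and 41 antisense sequences, the most antisense of the 34 genes. Kdm1a, a histone demethylase gene, followed with 68 and 12. For Tdg, the gene of a glycosylase that removes oxidised methylcytosine, the 15 sense sequences were listed between 41775136 and 82113356 of chromosome 10, farther apart than a gene, and all 15 began with U. How these positions arose was not tested.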
